A study of Rattus with 12 samples.

Results

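NMDA receptors are glutamate-gated cation channels, and 8 genes of this receptor system were read across 12 rat brain cell cultures exposed to fentanyl, an agonist of the mu opioid receptor. The genes were taken by symbol and are the subunits Grin1, Grin2a, Grin2b, Grin2c, Grin2d and Grin3a and the postsynaptic anchoring proteins Akap5 and Dlg4, which make 8 of the 17337 genes in the count table. The cultures were primary Sprague Dawley co-cultures of cortical neurons, astrocytes and oligodendrocyte precursor cells, all from commercial suppliers, and no transgene or deletion was involved. The untreated condition received medium alone, the low dose condition 0.01 μM fentanyl and the high dose condition 10 μM fentanyl, each for 4 days and each with 4 cultures. Untreated cultures carry the letters A, G, M and P, low dose cultures B, H, N and Q, and high dose cultures C, I, O and R. Values by culture follow this order below. Each untreated letter is followed by a low and then a high dose letter, which gives 4 letter sets (A to C, G to I, M to O and P to R), but neither the labels nor the methods say what a set shares. The study uses the term biological replicates for its cell type estimates, which were drawn from its bulk RNA sequencing data. What the term covers is not explained, and the sources used here do not say whether these cultures came from separate cell isolations. The p-values therefore measure the spread between these 12 cultures.

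An NMDA receptor is a tetramer that holds the obligatory GluN1 subunit (Grin1), which binds glycine or D-serine, together with GluN2 subunits, which bind glutamate, or GluN3 subunits. It opens when glutamate binds while the membrane is depolarised enough to expel magnesium from the pore, and it then lets calcium into the spine. In cortical neurons GluN2B (Grin2b) dominates early in development and GluN2A (Grin2a) rises as synapses mature, while PSD-95 (Dlg4) holds the receptor in the postsynaptic density and AKAP79/150 (Akap5) tethers protein kinase A, protein kinase C and calcineurin beside it. All 8 symbols matched the rat RefSeq annotation. In that annotation (assembly GRCr8) Grin1 overlaps Lrrc26, Grin2d overlaps Grwd1, and Ppp3r2 lies within Grin3a. The library kit does not keep the strand, so reads of overlapping genes could not be told apart in the overlap. Lrrc26 had 1 to 58 counts per culture, Grwd1 205 to 465 and Ppp3r2 0 or 1.

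Cultures had 12059872 to 24813893 counts in total. Levels are given as CPM, read counts as a share of the library total after TMM scaling, and 1 culture stood apart. Untreated culture G had 20 counts of Rbfox3, the neuronal nuclear antigen NeuN, against 714 to 2019 in the other 11 cultures. Its neuron score, the mean of log2(CPM + 1) over 12 pan-neuronal markers, was 4.46, against 7.74 to 8.32 elsewhere. All 12 of these markers were lowest in G, and its fibroblast score of 8.27 over 4 markers was above the other cultures, of which low dose culture N had 7.31 and the rest 2.53 to 4.98. Astrocyte scores spanned 7.13 to 9.01 and oligodendrocyte precursor scores 4.98 to 7.26. The fold changes of the 8 genes against the untreated condition are therefore given with and without culture G. In RNA from whole cultures, fewer neurons and less RNA per neuron cannot be told apart.

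Grin1, the subunit that every NMDA receptor needs, was at 568, 15.8, 555 and 458 CPM in the untreated cultures. It was at 492, 561, 524 and 433 CPM at the low dose and at 530.0, 593, 580 and 541 CPM at the high dose. Apart from G, the 11 cultures lay in a narrow range, and no pair of conditions was separated. The mean was 399 ± 260 CPM (SD, n = 4) in untreated cultures, or 527 ± 59.9 CPM (n = 3) without G, 503 ± 54.3 CPM (n = 4) at the low dose and 561 ± 30.1 CPM (n = 4) at the high dose. With G left out the order was high dose, untreated, low dose, and each neighbouring pair overlapped. In the model, the log2 fold change was 0.50 (SE 0.41) for low dose against untreated, 0.64 (SE 0.41) for high dose against untreated and 0.14 (SE 0.41) for high against low dose, each with an adjusted p of 1.0 (edgeR, quasi-likelihood test). Without culture G the first became -0.08 (SE 0.10) and the second 0.08 (SE 0.10).

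**Figure D1:**
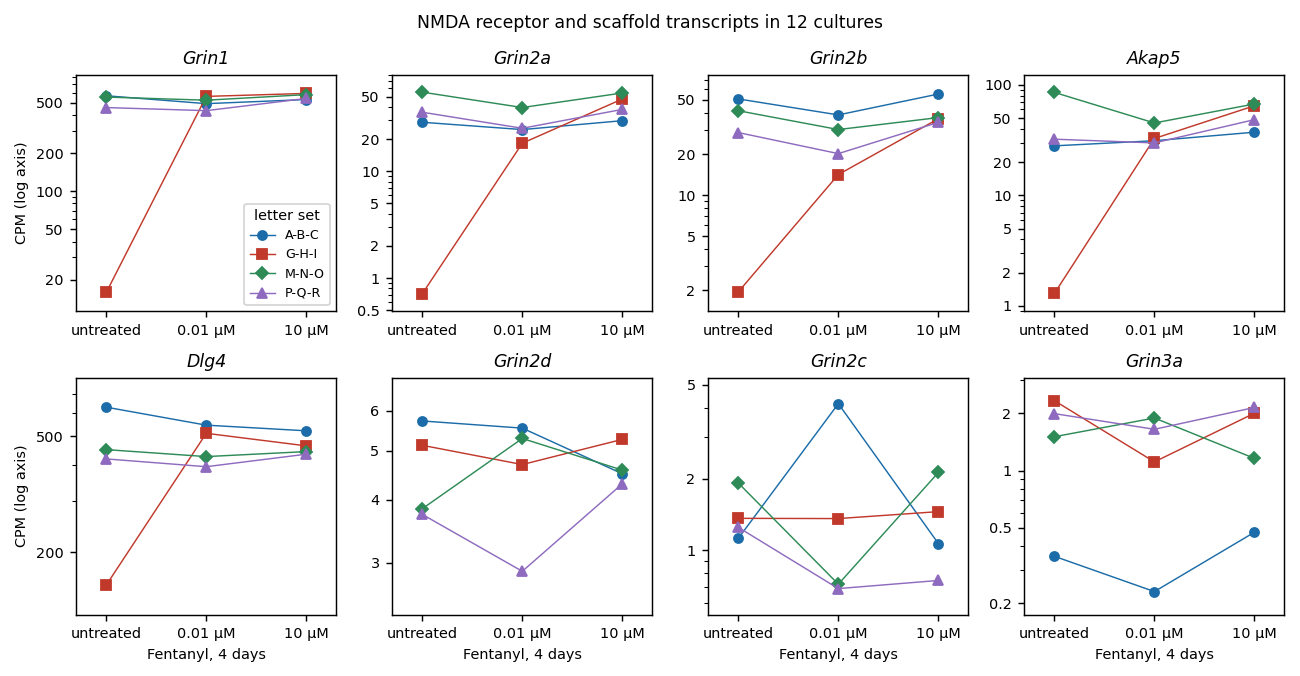
CPM (log axis, a range of its own per panel) of the 8 genes in each of the 12 cultures by fentanyl dose, with 1 point per culture and a line through each set of consecutive letters. Untreated culture G lies far below the rest for Grin1, Grin2a, Grin2b, Akap5 and Dlg4 but not for Grin2c, Grin2d and Grin3a, and the A-B-C set lies apart for Grin3a.

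Grin2a encodes GluN2A, the glutamate-binding subunit of mature synapses. It was at 28.7, 0.71, 55.0 and 35.7 CPM in untreated, 24.5, 18.3, 39.5 and 25.2 CPM in low dose and 29.7, 47.4, 54.0 and 37.9 CPM in high dose cultures. The low dose values lay mostly below the high dose values, but culture N (39.5 CPM) exceeded high dose cultures C and R, so the doses overlapped. The high dose mean was 42.3 ± 10.7 CPM (SD, n = 4), the untreated mean without G 39.8 ± 13.6 CPM (n = 3) and the low dose mean 26.9 ± 8.96 CPM (n = 4). The log2 fold change was 0.05 (SE 0.62) at the low dose and 0.65 (SE 0.63) at the high dose against untreated, and 0.60 (95% interval -0.80 to 2.0) between the doses, each with an adjusted p of 1.0 (edgeR). Without culture G the low dose value turned to -0.56 (SE 0.31), and the high dose value was 0.09 (SE 0.31).

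Grin2b encodes GluN2B, the glutamate-binding subunit that prevails in young neurons. Its levels were 50.8, 1.95, 41.6 and 28.8 CPM in untreated, 38.8, 14.1, 30.3 and 20.2 CPM in low dose and 55.2, 36.3, 37.1 and 34.2 CPM in high dose cultures. Low dose culture H was the lowest apart from G, and low dose culture B lay above 3 of the 4 high dose cultures. The mean was 40.7 ± 9.75 CPM (SD, n = 4) at the high dose, 40.4 ± 11.1 CPM (n = 3) in untreated cultures without G and 25.8 ± 10.9 CPM (n = 4) at the low dose. The log2 fold change was -0.16 (SE 0.45) for low dose against untreated, 0.45 (SE 0.45) for high dose against untreated and 0.61 (95% interval -0.38 to 1.60) for high against low dose, each with an adjusted p of 1.0 (edgeR). Without culture G these were -0.69 (SE 0.23, unadjusted p = 0.0143), -0.04 (SE 0.23) and 0.65 (SE 0.22, unadjusted p = 0.0134), with adjusted p of 0.994, 1.0 and 1.0 in edgeR. Among the 12337 genes kept in that fit, 245 had an unadjusted p under 0.05 for low dose against untreated and 523 for high against low dose. Of the 8 genes, 1 and 2 did in the same order, so Grin2b was not the only one between the doses.

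The call for Grin2a and Grin2b depended on how unwanted variation was modelled. The reported model holds 1 factor of unwanted variation. With 4 factors, which are estimated from the differences between replicates that also give the error, high against low dose gave 0.71 (SE 0.13, adjusted p = 0.0314, edgeR) for Grin2a and 0.75 (SE 0.12, adjusted p = 0.0217, edgeR) for Grin2b. That model called 113 genes in this comparison, and neither Grin1 (adjusted p = 0.111) nor Akap5 (adjusted p = 0.102) was among them. With a letter-set term replacing the factor and culture G left out, the values were 0.67 (SE 0.15, adjusted p = 0.127) and 0.72 (SE 0.14, adjusted p = 0.0971), and 14 genes were called. The 4-factor model also gave -0.44 (adjusted p = 0.390) for Grin2a and -0.50 (adjusted p = 0.372) for Grin2b in low dose against untreated cultures, neither past the threshold.

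Grin2c and Grin2d encode GluN2C and GluN2D, subunits that give receptors with weaker magnesium block and are typical of cerebellar granule cells and glia, and of developing brain and interneurons, respectively. Grin2c was near the lower end of what this depth can show, with 10 to 54 counts per culture. It was at 1.12, 1.36, 1.92 and 1.25 CPM in untreated, 4.16, 1.36, 0.72 and 0.69 CPM in low dose and 1.07, 1.45, 2.13 and 0.74 CPM in high dose cultures. Low dose culture B stood above every other culture, and the conditions otherwise shared 1 range. The log2 fold change was 0.28 (SE 0.63) and -0.08 (SE 0.61) against untreated and -0.36 (SE 0.59) between the doses, with an adjusted p of 1.0 in each (edgeR). Leaving out culture B turned the first to -0.57 and the last to 0.52. Without culture G the values against untreated were -0.0080 (SE 0.52) and -0.26 (SE 0.58).

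Grin2d was nearly level across conditions, with 42 to 105 counts per culture. The values were 5.72, 5.12, 3.84 and 3.74 CPM in untreated, 5.54, 4.69, 5.29 and 2.89 CPM in low dose and 4.50, 5.26, 4.58 and 4.30 CPM in high dose cultures. All 3 conditions overlapped, and culture G lay inside the range of the others. The means of 4.61 ± 0.97, 4.60 ± 1.20 and 4.66 ± 0.42 CPM (SD, n = 4 each) differed by less than the spread between replicates. The 95% interval of the log2 fold change was -0.50 to 0.57 for low dose against untreated, -0.48 to 0.59 for high dose against untreated and -0.50 to 0.54 for high against low dose, with an adjusted p of 1.0 in each (edgeR). Without culture G the values against untreated were 0.01 (SE 0.19) and 0.05 (SE 0.19).

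Grin3a encodes GluN3A, which lowers calcium entry and is typical of juvenile neurons. It had 3 to 52 counts per culture and was at 0.35, 2.34, 1.51 and 2.0 CPM in untreated, 0.23, 1.11, 1.89 and 1.65 CPM in low dose and 0.47, 2.01, 1.16 and 2.15 CPM in high dose cultures. Cultures A, B and C had 6, 3 and 8 counts, and 3 counts per culture were taken as the floor of detection, which covers counting error only. These 3 cultures lay at 0.23 to 0.47 CPM at every dose, below the 1.11 to 2.15 CPM of the other 8 cultures apart from G. Of all genes tested, 19.3% were likewise lower in A, B and C than in those 8. The same 3 cultures had oligodendrocyte precursor scores of 4.98 to 5.54 against 6.55 to 7.26 in those 8, and oligodendrocyte scores of 6.69 to 7.39 against 8.26 to 9.98, and the part of these cells in the result was not tested. Across the 11 cultures without G, 88.4% of the variance of Grin3a lay between letter sets and 1.94% between doses. The log2 fold change was -0.12 (SE 0.69), 0.15 (SE 0.69) and 0.27 (SE 0.67) for low dose against untreated, high dose against untreated and high against low dose, with an adjusted p of 1.0 in each (edgeR). Without culture G the values against untreated were 0.18 (SE 0.57) and 0.44 (SE 0.57).

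Dlg4 encodes PSD-95, the scaffold that binds GluN2 tails in the postsynaptic density. It was at 630.0, 154, 450.4 and 418 CPM in untreated, 547, 512, 426 and 393 CPM in low dose and 523, 464, 443 and 434 CPM in high dose cultures. The high dose cultures lay within the range of the low dose cultures, and A, B and C were the highest of their conditions. The A-B-C set spanned 523 to 630.0 CPM against 393 to 512 CPM in the other 8 cultures without G, and 16.7% of all genes tested were likewise higher in that set. Without culture G, 84.2% of the variance of Dlg4 lay between letter sets and 3.42% between doses. The log2 fold change was 0.08 (SE 0.17) for both doses against untreated and 0.0039 (95% interval -0.37 to 0.38) between the doses, with an adjusted p of 1.0 in each (edgeR). Without culture G both values against untreated became negative, at -0.10 (SE 0.10) and -0.12 (SE 0.10).

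Akap5 encodes the anchoring protein that places kinases and calcineurin at the receptor. Its levels were 28.1, 1.30, 85.5 and 32.3 CPM in untreated, 31.2, 32.7, 45.2 and 29.9 CPM in low dose and 37.3, 64.7, 67.2 and 48.5 CPM in high dose cultures. All but 1 of the low dose cultures lay below all high dose cultures, the exception being N, and untreated culture M was the highest of the 12. The mean was 54.4 ± 14.1 CPM (SD, n = 4) at the high dose, 48.6 ± 32.02 CPM (n = 3) in untreated cultures without G and 34.8 ± 7.07 CPM (n = 4) at the low dose. The log2 fold change was 0.0025 (SE 0.55) for low dose against untreated, 0.63 (SE 0.65) for high dose against untreated and 0.63 (95% interval -0.81 to 2.06) for high against low dose, with an adjusted p of 1.0 in each (edgeR). Without culture G the values against untreated were -0.49 (SE 0.38) and 0.16 (SE 0.38).

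**Figure D2:**
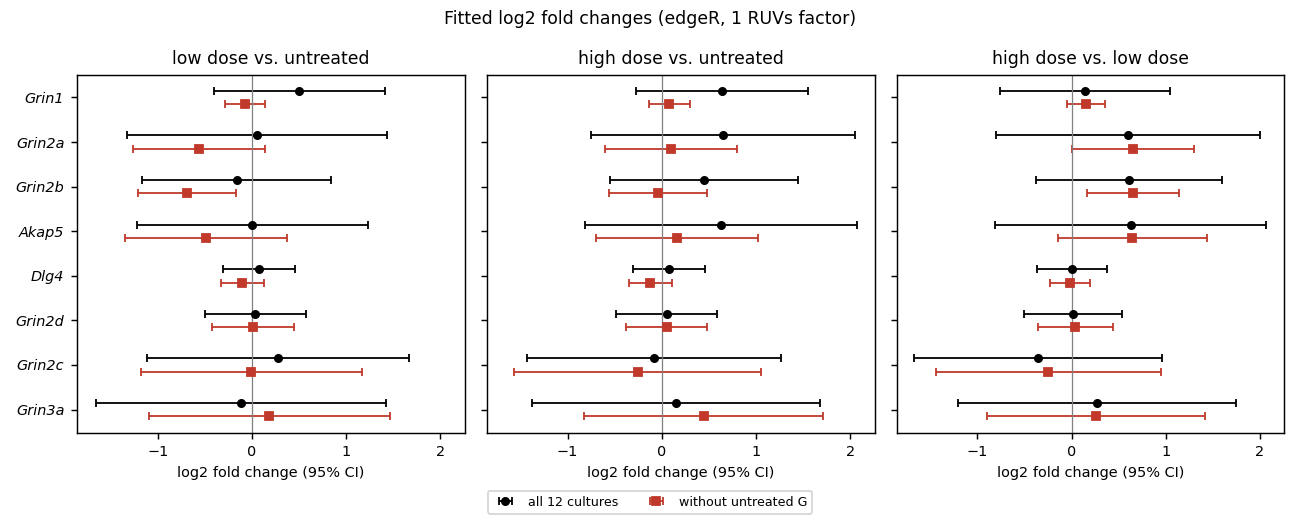
Log2 fold change of the 8 genes in the 3 comparisons, as points with 95% intervals, from all 12 cultures and from 11 cultures without untreated culture G. With all cultures every interval crosses 0, and without G the intervals are narrower and the low dose against untreated values of Grin1, Grin2a, Akap5 and Dlg4 are among those on the negative side.

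None of the 8 genes was called in any comparison, where a call needed a log2 fold change beyond 0.5 either way at an adjusted p under 0.05, and 0% of the 12271 genes tested were called in each. At an unadjusted p under 0.05 there were again 0 of the 8, against 0.742% of all genes for low dose against untreated, 1.19% for high dose against untreated and 1.17% for high against low dose. The median log2 fold change of the 8 genes was 0.04, 0.30 and 0.21 in the same order, and that of all genes tested was 0.01, 0.00 and -0.01. Of the 8 genes, 6, 7 and 7 had a positive value, against 53.4%, 50.8% and 47.6% of all genes. Without culture G, as an alternative chosen after seeing the data, these counts were 2, 5 and 6 of the 8, and the low dose against untreated value was positive only for Grin2d and Grin3a. No gene of the 8 had values in 1 condition that lay entirely above or below those of another. Of the 12271 genes tested, 24, 44 and 82 lay entirely above in the 3 comparisons (0.196%, 0.359% and 0.668%), and 26, 40 and 64 entirely below. At such small shares, 0 of the 8 sets these genes apart from the rest in no way. The comparisons share their untreated or dosed cultures, so these counts are not independent of each other.

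The letter sets gave a second view of the high and low doses, as a description only. On the log2(CPM + 1) scale, Grin2a was higher at the high dose by 0.27, 1.33, 0.44 and 0.57 in the 4 sets, taken in letter order. The differences for Grin2b were 0.50, 1.30, 0.28 and 0.74, those for Akap5 0.25, 0.96, 0.56 and 0.68, and those for Grin1 0.11, 0.08, 0.15 and 0.32. These 4 of the 8 genes were thus higher at the high dose in all 4 sets, as were 11.7% of all genes tested. The study had already named Grin2a and Grin2b as lower at the low dose and Akap5 as higher at the high dose, from these same libraries. The scaffold Dlg4 (-0.06, -0.14, 0.06 and 0.14) and the subunits Grin2c, Grin2d and Grin3a went both ways. G-H-I gave the largest difference for Grin2a, Grin2b and Akap5, and its low dose culture H was also the lowest of the 11 cultures without G in the dendritic marker Map2, at 234 CPM against 330.4 to 679 CPM. Map2 is only 1 of the 12 neuron markers, and H was not low in them as a whole. Its neuron score of 8.15 lay within the 7.74 to 8.32 of the 11 cultures. The neuron score was higher at the high dose in every set too, by 0.05, 0.15, 0.28 and 0.27, as was the oligodendrocyte precursor score, by 0.19, 0.20, 0.30 and 0.12, and the astrocyte score differed by 0.02, -0.30, -0.37 and -0.47. Their part in the result was not tested here beyond the ratio to neuron markers given next.

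**Figure D3:**
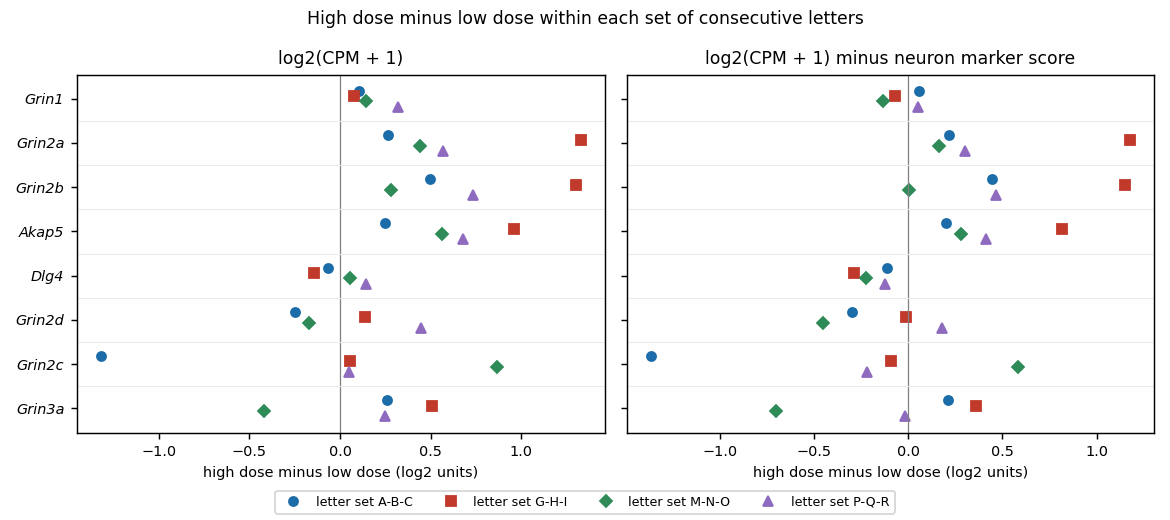
High dose minus low dose in each letter set for the 8 genes, in log2 units, for log2(CPM + 1) (left) and for the same values minus the neuron marker score (right), with 1 symbol per letter set. Grin2a, Grin2b and Akap5 lie to the right of 0 in all 4 sets in both panels, and Dlg4 lies to the left of 0 in all 4 sets in the right panel.

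Members were next read relative to the neurons in each culture, as log2(CPM + 1) minus the neuron score. High dose minus low dose was 0.21, 1.18, 0.16 and 0.30 for Grin2a, 0.45, 1.15, 0.0021 and 0.47 for Grin2b and 0.20, 0.81, 0.28 and 0.41 for Akap5 in letter order. These 3 of the 8 genes stayed higher in all 4 sets, as did 1.28% of all genes tested, although Grin2b in M-N-O was level with the neuron markers. The study had already named these 3 genes from the same libraries, so the count is not separate evidence about them. The count also depended on the score. With the median of the 12 markers in place of their mean, chosen after seeing the data, Grin2a was -0.09 and Grin2b -0.25 in M-N-O, and 1 of the 8 genes, Akap5, was higher in all 4 sets (0.03 in M-N-O), as were 0.399% of all genes. By mean or median the neuron score rose from low to high dose in every set, and subtracting it lowers every gene. Both shares of all genes are small in part for that reason, and no share among neuronal genes was taken. With the mean, Grin1 was not higher in all 4 sets (0.06, -0.07, -0.14 and 0.05), so its difference between the doses was close to that of the neuron markers. Dlg4 was lower relative to neurons at the high dose in all 4 sets (-0.12, -0.29, -0.22 and -0.13), as were 43.6% of all genes, and also with the median of the markers, as were 59.0% of all genes. Over the conditions, the relative level of Dlg4 was 0.68 ± 0.10 (SD, n = 4) at the high dose and 0.87 ± 0.02 (n = 4) at the low dose, a difference of -0.19 with an exact two-sided permutation p of 0.0286. That is the smallest p that the 70 arrangements of 4 against 4 cultures allow, and it was 0.686 after Benjamini-Hochberg adjustment over 24 tests. The corresponding differences were 0.46 for Grin2a (exact permutation p = 0.229), 0.52 for Grin2b (p = 0.171, exact) and 0.43 for Akap5 (p = 0.171, exact), each with an adjusted p of 0.800. Without low dose culture H they were 0.25, 0.22 and 0.35. No comparison of the 24 passed the threshold after adjustment, but these tests could hardly decide it. A difference at the smallest possible p fails the adjustment unless many others reach that p too.

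At the low dose against untreated, the letter sets without culture G went the other way for several genes. On the log2(CPM + 1) scale, Grin2b differed by -0.38, -0.45 and -0.49 in the sets of A, M and P, and by 2.36 in G-H-I, where the untreated culture is G. Grin2a differed by -0.22, -0.47 and -0.48 in the same 3 sets, Grin1 by -0.21, -0.08 and -0.08 and Dlg4 by -0.20, -0.08 and -0.09. These 4 of the 8 genes were lower in the 3 sets without G, as were 7 of the 12 neuron markers and 13.7% of all genes tested. The neuron score differed there by -0.11, -0.26 and -0.05. The study had already named Grin2a and Grin2b as lower at the low dose from these same libraries. Relative to the neuron score, Grin2b differed by -0.27, -0.19 and -0.44 and Grin2a by -0.11, -0.21 and -0.43, while Grin1 and Dlg4 were higher in M-N-O (0.18 each) and lower in the other sets. Over all 4 cultures a condition, the relative level of Grin2b was -3.34 ± 0.63 (SD, n = 4) at the low dose and -2.79 ± 0.14 (n = 4) in untreated cultures, with an exact two-sided permutation p of 0.0857 (adjusted p = 0.686). Culture G moves little on this scale for Grin2b, and the difference was -0.56 with it and -0.60 without it. It rested more on low dose culture H, without which it was -0.26 (exact permutation p = 0.143, adjusted p = 0.943).

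Ratios between members compared subunits within the same library, where differences between genes in length cancel out of any change. On CPM + 1, the log2 ratio of Grin2a to Grin2b was -0.80, -0.78, 0.39 and 0.30 in untreated, -0.64, 0.35, 0.37 and 0.31 in low dose and -0.87, 0.37, 0.53 and 0.15 in high dose cultures. Cultures A, B and C had low ratios at every dose, and the 8 cultures other than these and G lay between 0.15 and 0.53. The -0.78 of G came from 11 counts of Grin2a and 30 of Grin2b. At such levels the added 1 CPM pulls the ratio toward equality, and without it the ratio in G is lower still. With so few counts, the order of G relative to A, B and C was not resolved. The ratio differed by -0.05 between the doses (exact two-sided permutation p = 0.800). Within the letter sets the ratio went both ways between the doses, with high dose minus low dose at -0.23, 0.03, 0.16 and -0.17 in letter order.

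The log2 ratio of Dlg4 to Grin1 was 0.15, 3.21, -0.30 and -0.13 in untreated, 0.15, -0.13, -0.30 and -0.14 in low dose and -0.02, -0.35, -0.39 and -0.32 in high dose cultures. Untreated and low dose cultures of the same set had nearly equal ratios apart from G, within 0.01 of each other, and the high dose culture of each set lay below the low dose one, with differences of -0.17, -0.22, -0.09 and -0.18. The difference between the doses was -0.16 (exact two-sided permutation p = 0.286, adjusted p = 0.754 over 12 ratio tests). The log2 ratio of Akap5 to Dlg4 was -4.44, -6.08, -2.38 and -3.66 in untreated, -4.09, -3.93, -3.21 and -3.68 in low dose and -3.77, -2.82, -2.70 and -3.14 in high dose cultures. It was higher at the high dose than the low by 0.31, 1.10, 0.50 and 0.54 in the 4 sets and by 0.62 over the conditions (exact two-sided permutation p = 0.114, adjusted p = 0.754). The ratio of Grin3a to Grin1 differed by -0.01 between the doses (exact permutation p = 0.971). The remaining comparisons of ratios also missed the threshold. Here too a ratio at the smallest possible p fails the adjustment over 12 tests unless many others reach that p.

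**Figure D4:**
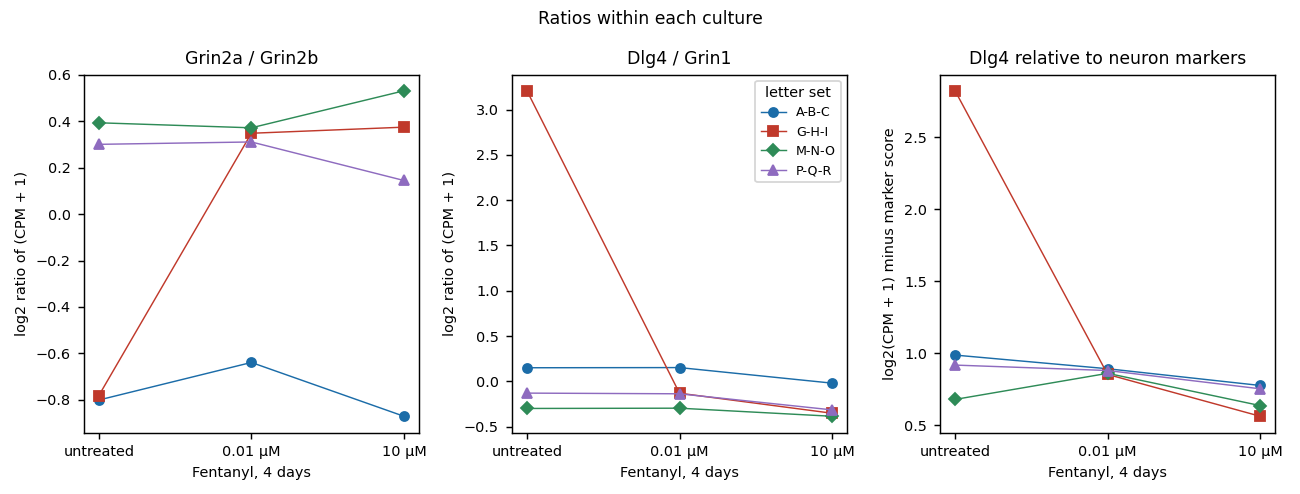
Log2 ratios of Grin2a to Grin2b and of Dlg4 to Grin1, both of CPM + 1, and log2(CPM + 1) of Dlg4 minus the neuron marker score, by dose, with 1 point per culture and a line through each letter set. The Grin2a to Grin2b ratio is low in A, B and C at every dose, untreated culture G is apart at 3.21 in the Dlg4 to Grin1 ratio, and the high dose point of each set lies below its low dose point in both Dlg4 panels.

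Culture G divided the 8 genes. Compared with the median of the other 11 cultures, Grin1 was 34.2-fold, Grin2a 50.0-fold, Grin2b 18.7-fold, Akap5 28.8-fold and Dlg4 2.92-fold lower in G. These 5 of the 8 genes were below all other cultures, against 28.4% of all genes tested, as were all 12 neuron markers and 38 of 49 other genes of the NMDA receptor pathway. Grin2c at 1.36 CPM and Grin2d at 5.12 CPM lay inside the range of the other cultures. Grin3a at 2.34 CPM was above all of them, as 1 of the 8 genes against 27.7% of all genes. Its 36 counts give a 95% Poisson interval of 1.64 to 3.23 CPM for counting error alone, and the next highest culture had 2.15 CPM, so the order of these cultures was not resolved. Dlg4 kept more of its level in G than Grin1 did, and the log2 ratio of both was 3.21 there. Among other scaffolds, Dlg1 (SAP97), which many cell types express, was at 86.5 CPM in G within 42.4 to 116 CPM elsewhere, while Dlg2 (PSD-93) was at 6.62 CPM against 82.5 to 138 CPM. Dlg1 and Dlg2 were chosen for naming after their values were seen.

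**Figure D5:**
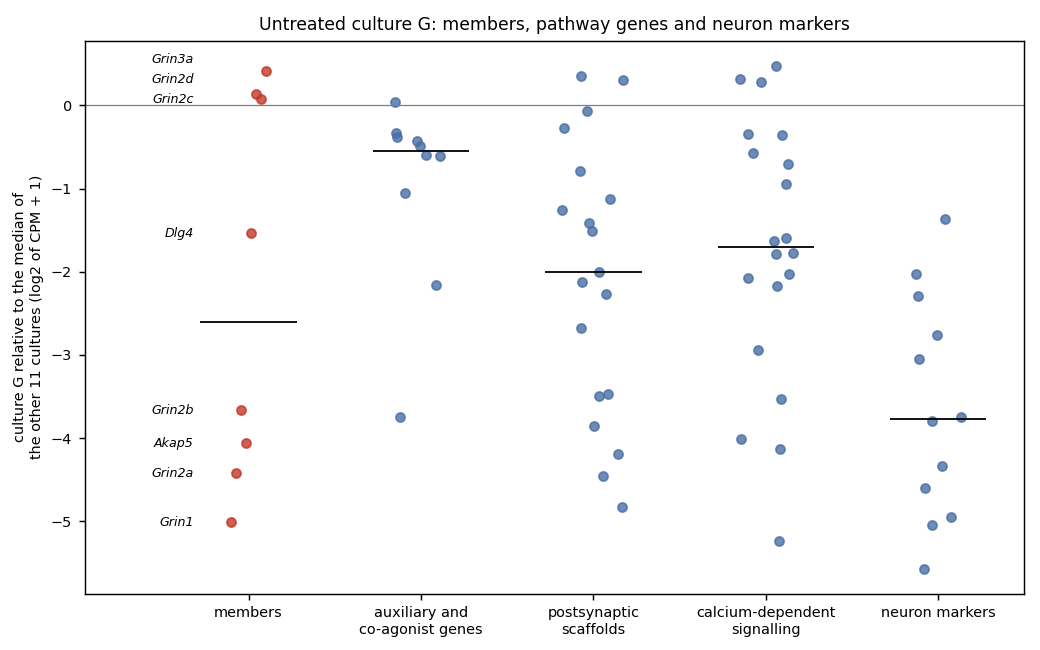
Untreated culture G minus the median of the other 11 cultures, in log2(CPM + 1), with 1 point per gene and a bar at the median of each list, for the 8 genes (members), the 3 pathway lists and the neuron markers. Grin1, Grin2a, Grin2b and Akap5 lie as far below 0 as many neuron markers, Dlg4 lies less far below, and Grin2c, Grin2d and Grin3a lie just above 0.

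Other genes of the pathway were taken from 3 lists, the receptor's auxiliary and co-agonist genes, other postsynaptic scaffolds, and calcium-dependent signalling partners. Of 50 listed genes 49 were in the table and were tested, and 0 were called in each comparison. The median log2 fold change was 0.07 for low dose against untreated, 0.18 for high dose against untreated and 0.09 for high against low dose, with a positive value in 35, 36 and 37 of the 49 genes, beside the medians and shares of all genes given above for the 8 genes. Without culture G, again chosen after seeing the data, the counts were 11, 24 and 33 of 49 and the medians -0.10, -0.01 and 0.09, against 54.8%, 51.6% and 47.3% positive and medians of 0.02, 0.01 and -0.01 over all genes. With all cultures, Akap9, an anchoring protein that binds GluN1, was the only one with an unadjusted p under 0.05, at 0.40 for high against low dose (SE 0.17, unadjusted p = 0.0400, adjusted p = 1.0, edgeR). It was at 99.1, 62.0, 102.7 and 79.9 CPM at the low dose and 131, 106, 113 and 104 CPM at the high dose. The doses did not overlap, though 102.7 CPM in culture N was just below 104 CPM in culture R. Of all genes tested, 1.17% had an unadjusted p under 0.05 in this comparison and 0.668% lay entirely above at the high dose.

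The highest value in high against low dose was 1.01 (SE 1.23) for Nos1, the neuronal nitric oxide synthase that PSD-95 tethers to the receptor. It was followed by 0.51 (SE 0.64) for Camk2a, the kinase that calcium through the receptor activates, and both also headed high dose against untreated, at 0.87 and 0.76. Culture G had 0.13 CPM of Nos1 and 9.08 CPM of Camk2a, below all other cultures (0.34 to 35.1 and 145 to 523 CPM), and without it the values against untreated were 0.37 (SE 0.69) and 0.13 (SE 0.27). Camk2a was at 379.7, 379.8, 314 and 145 CPM at the low dose and 420.0, 503, 523 and 249 CPM at the high dose, so the doses overlapped. The lowest values between the doses were -0.43 (SE 0.33) for Slc7a10, a carrier of D-serine and other small amino acids, and -0.15 (SE 0.18) for Slc6a9, the glycine transporter GlyT1. In low dose against untreated cultures Lin7a (0.55, SE 0.55) and Slc7a10 (0.52, SE 0.36) were highest and Homer2 (-0.41, SE 0.26) and Akap9 (-0.28, SE 0.17) lowest. Lin7a was at 0.13 CPM in G against 8.0 to 22.4 CPM elsewhere, and its value without G was 0.05 (SE 0.15), while those of Slc7a10, Homer2 and Akap9 were 0.57, -0.33 and -0.36. In high dose against untreated cultures the lowest were Homer2 (-0.31, SE 0.26) and Slc6a9 (-0.13, SE 0.19). Lin7a belongs to the complex that carries receptor vesicles along dendrites, and Homer2 is a scaffold of metabotropic glutamate receptors. All of these had an adjusted p of 1.0 (edgeR). In the letter sets, 10 of the 49 genes were higher at the high dose than the low in all 4, among them Camk2a and Nos1, and 5 of the 12 neuron markers were, beside 11.7% of all genes tested.

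Across the 11 cultures without G, the 8 genes did not vary as 1 group. Grin2a followed Akap5 most closely (Pearson r = 0.87 of log2(CPM + 1)), and its r with Grin2b was 0.47. Grin3a and Dlg4 ran opposite (r = -0.85), which are the pair that the A-B-C set separates. With the neuron score, r was 0.78 for Grin1, 0.79 for Dlg4, 0.53 for Grin2b, 0.22 for Akap5, 0.06 for Grin2a, 0.69 for Grin2d, 0.46 for Grin2c and -0.60 for Grin3a. Dose held 40.2% of the variance of Grin2a and 41.3% of that of Grin2b, 26.1% for Grin1 and 26.0% for Akap5, and 0.749% to 3.42% for the other 4 genes. Letter sets took up more of the variance than dose in each of the 8 genes, with 47.6% for Grin2a, 54.2% for Grin2b, 55.8% for Grin1 and 57.5% for Akap5. There are 4 letter sets and 3 doses, and a split into more groups takes up more variance by chance. The shares were not corrected for this, so for Grin2a and Grin2b they do not rank letter set above dose. These figures describe 11 libraries that share letter sets and doses, and no test is attached.

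The genes whose pattern was most like a member over these 11 cultures were chosen by the highest r among all genes tested. For Grin2b these were the dendritic microtubule protein Map2 (r = 0.98), Clstn2 (0.97) and Cacna1c (0.97), the last a pore subunit of L-type calcium channels. For Grin2a they were Cpd (0.96), Kcnc1 (0.95), a fast potassium channel subunit, and Hipk3 (0.94), and for Akap5 the sodium channel subunit Scn2a (0.95), Pgr (0.94) and the scaffold Cnksr2 (0.93). Grin1 was most like Nrgn (0.92), a postsynaptic calmodulin-binding protein, Bles03 (0.91) and Clstn1 (0.91). Dlg4 was most like Mras (0.98), Ush1g (0.98) and Vdac1 (0.97), and Grin3a most like Tns1 (0.97), Trib1 (0.97) and Galnt10 (0.97). The A-B-C set lies apart for both Dlg4 and Grin3a, as given above, so these r values rest in part on that set. Grin2d was most like Zyx (0.93), Hyou1 (0.90) and Rbmx2 (0.90). Grin2c was most like Flt1 (0.96), an endothelial receptor of vascular growth factors that is also 1 of the 3 endothelial markers, Krt26 (0.88) and Syngr4 (0.84), and for Grin2c the pattern rests on the high value of culture B.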

How the data were processed

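Per the labels and the paper, poly(A) RNA libraries of 12 cultures were made with an unstranded kit (Illumina TruSeq v2), and the authors used STAR on rn6 and then featureCounts. They deposited raw counts per gene, without normalization. The annotation and the strand setting are not given in the sources used here. Counts were scaled by TMM, and filterByExpr kept 12271 of 17337 genes, all 8 members included. The paper names RUVseq without its procedure, so 1 RUVs factor was estimated from replicates with its formula rewritten in R, and the quasi-likelihood test of edgeR 4.0.16 (R 4.3.3, limma 3.58.1) was fitted over all 12 cultures with Benjamini-Hochberg adjustment over all genes. DESeq2 1.42.0 was an alternative. A call needed a log2 fold change beyond 0.5 either way at an adjusted p under 0.05, the paper's thresholds. Member ratios and levels relative to neuron markers used log2(CPM + 1) and exact permutation tests over 70 arrangements. Scripts were tested on simulated data.

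The members and the gene lists were chosen with earlier results of these data known. The genes named are the 8 members, the pathway genes with the 2 highest and 2 lowest log2 fold changes in each comparison, the 3 genes most like each member, Rbfox3, and genes said to be chosen afterwards. No pair of libraries had identical counts, and Spearman correlations within conditions were 0.814 to 0.993. Symbols and neighbouring genes came from RefSeq GRCr8, without coordinates. No transcript lengths were used, so levels are not compared between genes.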

Additional observations from a re-analysis of the deposited data

Results flagged for a closer look

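Of 60 groups of 4 cultures (members, ratios and levels relative to neuron markers), 9 held a culture that stood far from the other 3 by Dixon's test at the 95% level, where chance gives about 1 in 20. Untreated culture G, with few neuron transcripts, was that culture in 6 of them, which rest on the same library: Grin1 at 15.8 CPM, the log2 ratio of Dlg4 to Grin1 at 3.21, and the levels relative to the neuron score of Grin1 at -0.38, Grin2c at -3.22, Grin2d at -1.84 and Dlg4 at 2.82. High dose culture C had Grin2b at 55.2 CPM, above the 34.2 to 37.1 CPM of the other high dose cultures. Low dose culture B had a log2 ratio of Grin2a to Grin2b of -0.64 and a level of Grin2c relative to the neuron score of -5.84. Cultures B and C belong to the A-B-C set, where untreated culture A also had the highest Grin2b of its condition and a low Grin2a to Grin2b ratio.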

How the results depend on the processing

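The alternatives were no factor, 2 or 4 RUVs factors, a letter-set term in place of the factor (with and without culture G), DESeq2, its size factors, no filter on low counts, each culture left out in turn and, for ratios and levels relative to neuron markers, an offset of 0.1, the median of the markers or DESeq2 size factors. The conditions share no replicate letters, so no pairing is given by the labels. Of 480 recomputed log2 fold changes of members 404 kept their direction and side of the threshold, as did 144 of 156 ratios and 340 of 360 relative levels. For ratios and relative levels, leaving out a culture of a condition outside the comparison cannot change the value. Such cases keep their direction by construction and are included in these counts. The cause of the differences was not tested. Genes called moved from 0 in high dose against untreated to 1 with 2 factors, 39 with 4 factors, 15 with the letter-set term and no culture G and 3 with DESeq2, and in high against low dose to 1, 113, 14 and 1, while low dose against untreated had 0 throughout and no culture left out gave a call. Genes at an unadjusted p under 0.05 numbered 91, 146 and 144 as reported for low dose against untreated, high dose against untreated and high against low dose, 117, 131 and 59 without a factor, 282, 464 and 497 with 2 factors, and 1209, 1336 and 2317 with 4. Leaving culture G out of the counts of positive values and taking the median of the markers in the letter sets were added after seeing the data. Only Grin2a (0.71) and Grin2b (0.75) passed the threshold under any alternative, with 4 factors in high against low dose.

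Reversed log2 fold changes were as follows. Without a factor, Grin2a became -0.16, Grin2d -0.0031 and Akap5 -0.081 in low dose against untreated, Grin3a -0.084 in high dose against untreated and Dlg4 -0.011 in high against low dose. With 2 factors, low dose against untreated gave Grin2a -0.015, Grin2d -0.0076, Grin3a 0.15 and Akap5 -0.052, and high against low dose gave Dlg4 -0.0036. With 4 factors, low dose against untreated gave Grin2a -0.44, Grin2d -0.0037, Akap5 -0.34 and Dlg4 -0.0090, and Dlg4 was -0.015 in high dose against untreated and -0.0059 in high against low dose. With the letter-set term, Grin2d was -0.013 (low dose against untreated), Grin3a -0.039 (high dose against untreated) and Dlg4 -0.013 (high against low dose). With that term and no culture G, low dose against untreated gave Grin1 -0.11, Grin2a -0.52, Akap5 -0.39 and Dlg4 -0.10, and Dlg4 was -0.10 in high dose against untreated and -0.00050 in high against low dose. Akap5 in low dose against untreated was -0.0029 with DESeq2 size factors and -8.9e-05 without a filter. With an offset of 0.1, levels relative to neurons became 0.069 for Akap5 in low dose against untreated, 0.050 for Grin2b in high dose against untreated and 0.13 for Grin3a in high against low dose, and the Grin3a to Grin1 ratio became 0.16 in high against low dose.

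With each culture left out in turn, log2 fold changes for low dose against untreated spanned -0.076 to 0.96 for Grin1, -0.77 to 0.81 for Grin2a, -0.70 to 0.26 for Grin2b, -0.57 to 0.58 for Grin2c, -0.11 to 0.23 for Grin2d, -0.66 to 0.48 for Grin3a, -0.62 to 1.10 for Akap5 and -0.10 to 0.40 for Dlg4. For high dose against untreated they spanned -0.040 to 0.89 for Grin2b, -0.42 to 0.13 for Grin2c, -0.087 to 0.26 for Grin2d, -0.41 to 0.79 for Grin3a and -0.12 to 0.40 for Dlg4. For high against low dose they spanned -0.081 to 0.52 for Grin1, -0.66 to 0.52 for Grin2c, -0.15 to 0.13 for Grin2d, -0.067 to 0.55 for Grin3a and -0.095 to 0.063 for Dlg4. Log2 ratios spanned -2.09 to 0.032 for Grin3a to Grin1 and -0.23 to 1.0 for Akap5 to Dlg4 in low dose against untreated, -2.11 to 0.018 for Grin3a to Grin1 in high dose against untreated, and -0.30 to 0.25 for Grin2a to Grin2b and -0.27 to 0.18 for Grin3a to Grin1 in high against low dose. Levels relative to neurons spanned -1.23 to 0.11 for Grin2c, -1.22 to 0.12 for Grin2d, -1.67 to 0.052 for Grin3a, -0.29 to 0.30 for Akap5 and -0.71 to 0.010 for Dlg4 in low dose against untreated. They spanned -0.0046 to 0.47 for Grin1, -0.17 to 0.042 for Grin2b and -1.71 to 0.013 for Grin3a in high dose against untreated, and -0.10 to 0.036 for Grin1, -0.43 to 0.015 for Grin2c and -0.37 to 0.21 for Grin3a in high against low dose. Depth limits Grin3a and Grin2c most, with as few as 3 and 10 counts in a culture.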
